A study of Mus musculus with 2 samples.

Results

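Vessels of the newborn mouse head were followed through 36 genes of blood endothelium, lymphatic endothelium, the brain barrier and the mural or smooth muscle layer, out of 18193 genes named on the arrays. They were chosen as known markers of these cells, and every probe set carrying only the symbol of such a gene was taken, 61 of the 45101 probe sets on each array. The groups hold 19 genes of blood endothelium, 4 of lymphatic endothelium, 4 of the brain barrier and 9 of the mural or smooth muscle layer. Whole heads of newborn offspring of mice with the T(2:9)11H translocation were compared on 1 Affymetrix array for each of 2 genotypes. MatDp(dist2) heads, also called PatDp(dist9), have 2 maternal copies of Chr 2 beyond the T11H breakpoint and, with it, 2 paternal copies of the end of Chr 9. PatDp(dist2) heads, also called MatDp(dist9), carry the reverse, so neither head is a normal control and the parental origin of both chromosome parts differs at once. The sources used here do not give how many animals each array stands for, their sex or their background strain.

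Blood vessels are lined by endothelial cells, which read VEGF and angiopoietin signals through receptor tyrosine kinases, and are wrapped by pericytes or smooth muscle cells that stabilise and contract the tube. Lymphatic vessels arise from veins under the transcription factor Prox1 and respond to VEGF-C through the receptor Flt4. In the brain, endothelial cells acquire a barrier of tight junctions and selective transporters, which is not shared by vessels of muscle, skin or other tissues of the head. A whole head holds all of these vessel beds, and in such bulk RNA fewer cells of a type and less RNA per cell cannot be told apart.

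Each value is a MAS5 signal, a summary of the brightness of a probe set in arbitrary units on a linear scale. For each gene the probe set of highest mean log2 signal was used, and the gene was called measured where at least 1 array reached a floor of 187, which is the 50th percentile of signal taken as the median of both arrays. Below the floor on 1 array, the other signal divided by the floor serves as a bound ("at least"), and no fold is printed for a gene below it on both. With 1 array per genotype no replicate spread could be had and no test was run, so every difference describes these 2 arrays. The only internal measure of error was the disagreement between probe sets of the same gene, whose log2 ratios spread over a median of 0.36 in 4369 genes with several probe sets at or above the floor in both heads, and over 0.84 at the 90th percentile. This spread is read within the same 2 arrays and holds no variation between animals, dissections or labellings.

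Most vessel genes gave more signal on the PatDp(dist2) array, and the 3 measured brain barrier genes gave less, 2 of them measured only through the MatDp(dist2) array. Of 33 measured members, 29 were higher on the PatDp(dist2) array, against 48% of 12483 measured genes, and 4 were higher on the MatDp(dist2) array, against 52%. The differences were modest. At least 1.5-fold higher on the PatDp(dist2) array were 11 members, where the share among all measured genes was 10.8%, and 2 members were at least 1.5-fold higher on the MatDp(dist2) array, where that share was 12%. At least 2-fold higher on the PatDp(dist2) array were the receptor genes Flt1 and Tek, 2 members against a background of 3.47%, and 0 members were at least 2-fold higher on the MatDp(dist2) array, against 4.43%. The median log2 ratio of MatDp(dist2) over PatDp(dist2) was -0.43 over the members and 0.02 over all measured genes. Across all 45 measured probe sets of the members, 40 were higher on the PatDp(dist2) array, against 44.3% of 20764 measured probe sets.

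**Figure D1:**
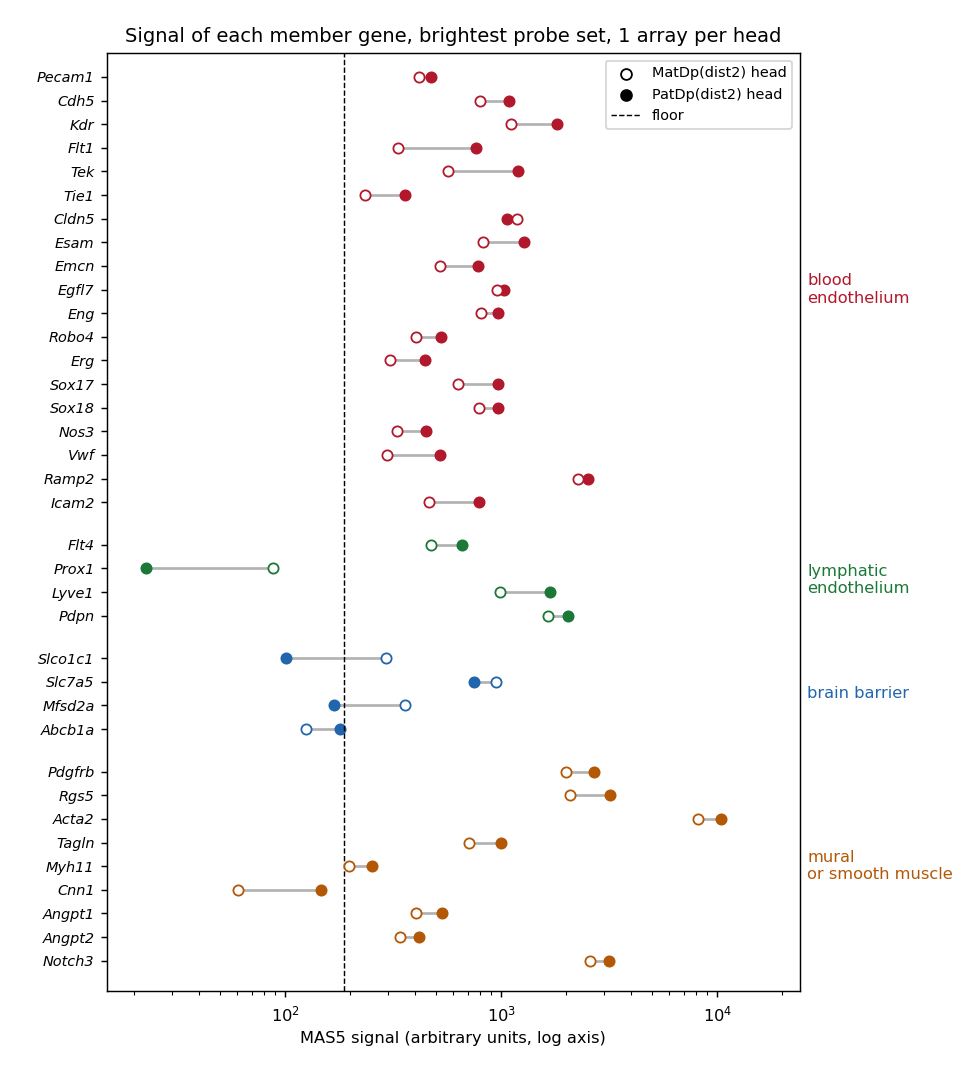
Signal of each of the 36 member genes on the probe set used for the gene, on a log axis in arbitrary units, with open circles for the MatDp(dist2) head and filled circles for the PatDp(dist2) head (1 array each), coloured by vessel group. The filled circle lies to the right of the open circle for 29 of the 33 genes with a signal at or above the dashed floor of 187, and to the left for Cldn5, Slco1c1, Slc7a5 and Mfsd2a.

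The receptor genes Tek, Tie1 and Kdr of blood endothelium were higher on the PatDp(dist2) array. Tek, the angiopoietin receptor Tie2, had a signal of 568 on the MatDp(dist2) array and 1195 on the PatDp(dist2) array, a 2.10-fold difference on its only probe set. Tie1, the related orphan receptor that modulates Tek, had 234 and 357, a 1.53-fold difference. Kdr, the main VEGF receptor for endothelial growth, had 1105.5 and 1813.5, which is 1.64-fold. Each rests on 1 probe set. The log2 ratio of Tek, -1.07, was larger in size than the 90th percentile of the spread between probe sets of a gene, 0.84, and those of Kdr, -0.71, and Tie1, -0.61, lay between the median spread and that percentile. Because that spread holds no variation between animals, it cannot say whether any of these differences exceeds such variation.

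Flt1, a VEGF receptor that also exists as a soluble decoy, had the largest ratio of the members but the least agreement between its probe sets. Probe set 1419300_at had signals of 333 and 766, 2.30-fold higher on the PatDp(dist2) array. Probe set 1451756_at had 495 and 502, and 1440926_at had 207 and 195, so that these 2 probe sets were nearly level between the heads. The remaining probe set, 1454037_a_at, lay below the floor with 120.4 and 73.0. The log2 ratios of the 3 measured probe sets spread over 1.29, the widest spread among the 8 members with several measured probe sets, and which transcript each of them reads was not analysed here. With quantile normalization 1451756_at became the brightest Flt1 probe set and the log2 ratio of the gene went from -1.20 to -0.15.

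The promoters of the members that lay farthest apart in each direction are shown as context for the values, as the 250 bases before the RefSeq start in GRCm38.p6. Flt1 and Tek had the highest folds on the PatDp(dist2) array, Slco1c1 and Mfsd2a, which are described with the barrier genes, had the highest bounds on the MatDp(dist2) array, Robo4 lies on Chr 9, and Acta2 stands for the contractile layer. Capitals mark AGGAAG on either strand (CTTCCT when read on the strand shown), a sequence that holds the GGAA core bound by ETS factors such as Erg.
Flt1 (chr5:147726012-147726261, minus strand): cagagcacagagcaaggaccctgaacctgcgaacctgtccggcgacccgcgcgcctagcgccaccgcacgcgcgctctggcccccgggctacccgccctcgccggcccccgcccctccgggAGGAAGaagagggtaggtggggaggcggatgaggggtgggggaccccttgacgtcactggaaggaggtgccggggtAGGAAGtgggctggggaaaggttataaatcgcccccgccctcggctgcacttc
Tek (chr4:94739039-94739288, plus strand): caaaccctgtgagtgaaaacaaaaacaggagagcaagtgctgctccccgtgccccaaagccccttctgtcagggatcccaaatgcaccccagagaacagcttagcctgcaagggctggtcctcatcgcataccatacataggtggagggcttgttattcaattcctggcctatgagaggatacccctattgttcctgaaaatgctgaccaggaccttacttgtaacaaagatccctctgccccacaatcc
Robo4 (chr9:37401722-37401971, plus strand): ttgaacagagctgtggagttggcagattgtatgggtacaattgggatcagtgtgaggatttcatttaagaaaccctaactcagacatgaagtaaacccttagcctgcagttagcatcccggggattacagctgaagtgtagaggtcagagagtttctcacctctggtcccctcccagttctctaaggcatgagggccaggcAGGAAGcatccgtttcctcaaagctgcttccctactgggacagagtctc
Acta2 (chr19:34255374-34255623, minus strand): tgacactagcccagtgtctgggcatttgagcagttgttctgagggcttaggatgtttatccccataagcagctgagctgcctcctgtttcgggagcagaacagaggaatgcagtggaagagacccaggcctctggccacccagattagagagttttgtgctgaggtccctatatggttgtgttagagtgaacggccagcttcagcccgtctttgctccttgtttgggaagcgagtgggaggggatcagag
Slco1c1 (chr6:141524104-141524353, plus strand): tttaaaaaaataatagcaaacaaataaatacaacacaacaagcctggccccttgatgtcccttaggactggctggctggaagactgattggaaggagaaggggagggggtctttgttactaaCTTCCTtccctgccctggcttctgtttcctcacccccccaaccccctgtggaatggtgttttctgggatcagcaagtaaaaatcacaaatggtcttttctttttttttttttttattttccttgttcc
Mfsd2a (chr4:122961189-122961438, minus strand): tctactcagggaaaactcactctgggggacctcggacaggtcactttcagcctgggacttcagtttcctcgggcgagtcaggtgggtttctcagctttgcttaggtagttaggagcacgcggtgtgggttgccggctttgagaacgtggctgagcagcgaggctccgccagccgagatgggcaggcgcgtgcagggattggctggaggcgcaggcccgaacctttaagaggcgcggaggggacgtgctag

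The table of promoters held 20 of the 36 members, counted at the first listed start of each gene. AGGAAG was present in 8 of these 20, in 6 of the 10 blood endothelial promoters, and in 29.1% of 27025 promoters of all genes. The 6 were those of Flt1, Tie1, Emcn, Egfl7, Eng and Robo4. Erg had no match at its first listed start and a match at another of its 3. Tek, Kdr and Cldn5 had no match in the window, and their signals differed between the heads by 2.10-fold, 1.64-fold and 1.12-fold. Of the barrier genes, Slco1c1 and Abcb1a had the match and Mfsd2a did not. Abcb1a lay below the floor in both heads and so has no direction, and the filter itself fixed the direction of Slco1c1. The match therefore cannot be set against the direction of the signals among these barrier genes. The CArG box, the site of the smooth muscle regulator SRF, was searched on both strands only as CC, 6 bases of A or T, and GG. This strict pattern was in 0 of the 4 mural promoters listed, those of Rgs5, Acta2, Cnn1 and Notch3, and in 1.4% of all promoters. The Acta2 window holds ccctatatgg and ccttgtttgg, which resemble the pattern without matching it and were not counted. The count of 0 therefore does not mean that CArG-like sequences are absent. Each match is a description of letters in this window and not of binding.

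Surface and junction genes of blood endothelium ranged from nearly level to 1.71-fold. Icam2, an adhesion molecule for leukocytes, had signals of 461 on the MatDp(dist2) array and 788 on the PatDp(dist2) array, a 1.71-fold difference. Esam, a junctional adhesion molecule, had 823 and 1269, a 1.54-fold difference, and Emcn, the sialomucin of veins and capillaries, had 521 and 783. Cdh5, the VE-cadherin of adherens junctions, had 796 and 1086, a 1.36-fold difference, on 1433956_at, and its other probe set lay below the floor. Pecam1, the CD31 antigen by which endothelium is commonly recognised, was closer, with 418 and 471, or 1.13-fold. Cldn5, the claudin of endothelial tight junctions and the only blood endothelial member higher on the MatDp(dist2) array, had 1186 and 1059.5, or 1.12-fold.

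Secreted and signalling proteins of blood endothelium were likewise higher on the PatDp(dist2) array. Vwf, the clotting factor stored in endothelial granules and made also by megakaryocytes, had signals of 297 and 518, a 1.75-fold difference. Nos3, the nitric oxide synthase that relaxes vessels, had 329 and 447. Ramp2, which turns the calcitonin-like receptor into a receptor for adrenomedullin, had 2272 and 2525, or 1.11-fold. Eng, a co-receptor for TGF-beta and BMP ligands, was 1.20-fold and 1.29-fold higher on its 2 probe sets, and Robo4, a receptor that guards vessel integrity, had 403 and 525, or 1.30-fold. Egfl7, a matrix-bound endothelial protein, was higher on the PatDp(dist2) array on all 4 probe sets, from 1.09-fold on 1435823_x_at to 1.61-fold on 1421335_a_at. The direction was shared by these genes, but the differences of Ramp2, Eng and Robo4 lay close to or within the median spread of 0.36 between probe sets of a gene.

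The transcription factors among the blood endothelial members, Erg, Sox17 and Sox18, were higher on the PatDp(dist2) array, by 1.21-fold to 1.52-fold on the probe sets used. Erg, an ETS factor that maintains endothelial identity, had signals of 307 and 445 on 1440244_at, a 1.45-fold difference, and lay below the floor on its other probe set. Sox18, mutated in a mouse with defects of vessels and hair, had 792 and 960.4, or 1.21-fold. Sox17, a factor of arterial endothelium, had 633 and 963 on 1429177_x_at, or 1.52-fold, and 233 and 238 on 1421657_a_at, or 1.02-fold. The suffixes _x_at and _s_at mark probe sets whose probes can also bind other transcripts, so the Sox17 difference rests on the less specific of its probe sets. In all, 18 of 19 blood endothelial genes were higher on the PatDp(dist2) array, against 48% of all measured genes. Of these, 9 differed by at least 1.5-fold, where the share among all measured genes was 10.8%. Their median log2 ratio was -0.54.

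**Figure D2:**
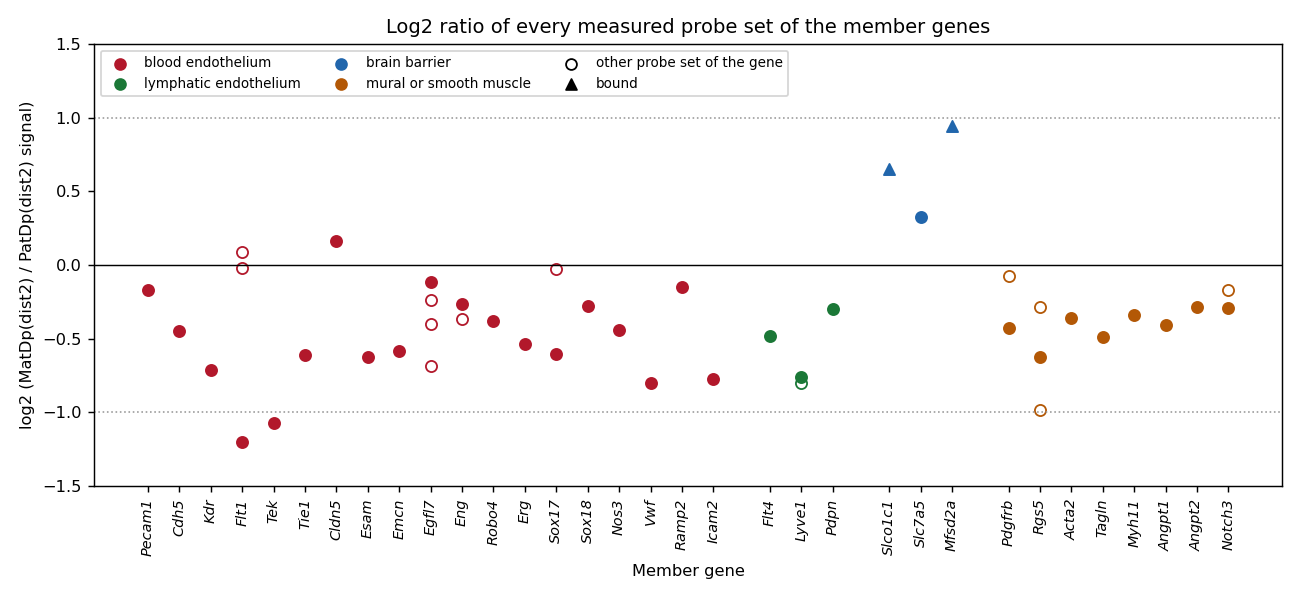
Log2 ratio of MatDp(dist2) over PatDp(dist2) signal (vertical axis) for all 45 measured probe sets of the member genes (horizontal axis), with filled symbols for the probe set used for the gene, open circles for its other probe sets, triangles for bounds and dotted lines at 2-fold. Points lie below 0 for blood and lymphatic endothelium and for mural genes except for Cldn5 and 1 probe set of Flt1, and the 3 measured barrier genes lie above 0, 2 of them as bounds.

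Lymphatic genes were higher on the PatDp(dist2) array where they could be measured. Lyve1, a hyaluronan receptor of lymphatic endothelium that tissue macrophages carry as well, had signals of 989 and 1678 on 1429379_at and of 775 and 1352 on 1453128_at. These folds of 1.70 and 1.74 made it the member whose probe sets agreed most closely. Flt4, the receptor for VEGF-C and VEGF-D, had 470.4 and 658, a 1.40-fold difference, on 1444052_at and lay below the floor on its other probe set. Pdpn, podoplanin, a mucin-like protein of lymphatic endothelium and also of bone and epithelial cells, had 1653 and 2031, or 1.23-fold.

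Prox1, the defining transcription factor of lymphatic identity and also a factor of the lens, lay below the floor in both heads on all 3 probe sets. Its signals on the MatDp(dist2) array were 88.2, 65.7 and 33.9, and on the PatDp(dist2) array 22.6, 25.0 and 2.8, so the lymphatic label rests here on the other markers. With the floor at the 30th percentile Prox1 was measured, with a bound of 0.23 on the log2 scale toward the MatDp(dist2) array. Lens markers were higher on the MatDp(dist2) array, with 12 of 12 measured and a summed signal of 36959 against 569, and all 12 lay below the floor on the PatDp(dist2) array. Markers of macrophages and other leukocytes, which can carry Lyve1, were higher on the PatDp(dist2) array in 12 of 14 genes, with summed signals of 11899 and 17451. The part of these cells in the values of Prox1 and Lyve1 was not tested.

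The 3 measured genes of the brain barrier pointed to the MatDp(dist2) array. Mfsd2a, the lipid transporter that restrains transcytosis in brain endothelium, had a signal of 359.8 on the MatDp(dist2) array and 168 on the PatDp(dist2) array, at least 1.92-fold higher in the former. Slco1c1, the thyroxine transporter of brain capillaries and choroid plexus, had 293 and 101, at least 1.57-fold. Slc7a5, the large neutral amino acid transporter, which many growing cells also make, had 942 and 750.2, or 1.26-fold. Abcb1a, the P-glycoprotein efflux pump, did not reach the floor on either array, with 125 and 180 on 1 probe set and 82.2 and 81.7 on the other, so no fold is given. It passed the floor in 2 alternative settings, toward the PatDp(dist2) array in both, with a log2 ratio of -0.06 after quantile normalization and of -0.53 under a floor at the 30th percentile. With 3 of 4 genes measured the median log2 ratio was 0.65. Mfsd2a and Slco1c1 passed the floor only through the MatDp(dist2) array, so the filter itself fixed their direction, and Slc7a5 is the only barrier gene compared above the floor on both arrays.

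Slc7a5, the barrier gene compared above the floor on both arrays, lay on the same side as the neuron markers of these heads. Because of the filter, Slco1c1 and Mfsd2a could lie only on that side. Of 15 measured neuron genes 13 were higher on the MatDp(dist2) array, with summed signals of 44826 and 22533 and a median log2 ratio of 1.18, and 0 of the 15 lay below the floor in both heads. Choroid plexus markers, which bear on Slco1c1, were higher there in 4 of 5 measured genes, with Ttr at 12952 and 327, and Kl, Folr1 and Kcne2 below the floor in both heads. The part of brain or choroid plexus content in the barrier values was not tested. Slc2a1, the glucose transporter of the barrier, had 2098 and 1847, or 1.14-fold higher on the MatDp(dist2) array. Genes of the same wider list, described next, also went the other way. Slc16a1 had 992 and 1600, Tfrc 2558 and 4066, and Abcg2 946 and 1279. These were 1.61-fold, 1.59-fold and 1.35-fold higher on the PatDp(dist2) array. Slc2a1 and these genes were named after their values were seen.

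A wider list of barrier genes and of the Wnt pathway that induces them was mixed. Of 17 measured genes 11 were higher on the MatDp(dist2) array and 6 on the PatDp(dist2) array, against 52% and 48% of all measured genes. The median log2 ratio was 0.05. At least 1.5-fold were 3 in each direction, against 12% toward the MatDp(dist2) array and 10.8% toward the PatDp(dist2) array. Ocln, Lsr and Lef1 passed the floor only through the MatDp(dist2) array, so the filter fixed their direction. Lef1 is among those at least 1.5-fold higher there. Fzd4, the receptor for Norrin and Wnt ligands on brain and retinal endothelium, had signals of 793 and 1729, 2.18-fold higher on the PatDp(dist2) array. Wnt7b, a ligand made by neural cells that instructs barrier formation, had 826 and 449, 1.84-fold higher on the MatDp(dist2) array, and Apcdd1, a Wnt target and inhibitor, had 1618 and 964, or 1.68-fold. Other parts of the pathway, named after their values were seen, varied. The ligand Wnt7a had 361 and 351 and the co-receptor Adgra2 had 1257.5 and 1249.6, so both were nearly level. Reck had 1663 and 2308, 1.39-fold higher on the PatDp(dist2) array. Lef1 had 440 and 177, a bound of at least 2.35-fold toward the MatDp(dist2) array.

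In the mural or smooth muscle group all 8 measured members were higher on the PatDp(dist2) array, against 48% of all measured genes, with a median log2 ratio of -0.38. The group includes the ligand genes Angpt1 and Angpt2, described below, which are not made by mural cells alone. Rgs5, a regulator of G protein signalling that marks pericytes, had signals of 2078 and 3201 on 1417466_at, a 1.54-fold difference, and 806 and 1596 on 1420941_at, or 1.98-fold. Its probe set 1420942_s_at had 369.6 and 451, or 1.22-fold, and 1420940_x_at lay below the floor. Pdgfrb, the receptor by which pericytes are recruited, had 1989 and 2679.9, or 1.35-fold, on 1 probe set and 314 and 330.3, or 1.05-fold, on the other. Notch3, the Notch receptor of arterial smooth muscle, had 2584 and 3162 on 1421965_s_at, or 1.22-fold, and 687 and 774 on 1421964_at, or 1.13-fold.

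The contractile genes shared the direction with small folds. Acta2, smooth muscle actin, had signals of 8111 and 10405, or 1.28-fold, on 1416454_s_at, and its 2 more specific probe sets lay below the floor. Tagln, the actin-binding protein SM22, had 709 and 995, or 1.40-fold. Myh11, the smooth muscle myosin and the most restricted of these markers, had 198 and 251, or 1.27-fold, close to the floor, with 8.0 and 12.8 on its other probe set. Cnn1, calponin, lay below the floor with 60.5 and 146. Myh11 and Cnn1, the late markers of contractile muscle, were thus near or below the floor in both heads, and the Acta2 value can hold signal of other actins.

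The angiopoietins, the ligands of Tek, were higher on the PatDp(dist2) array as well. Angpt1, the activating ligand made by mural and mesenchymal cells, had signals of 402 and 533 on 1439066_at, or 1.33-fold. Angpt2, the context-dependent antagonist made by endothelium itself, had 341 and 416 on 1448831_at, or 1.22-fold. The second probe set of each gene lay below the floor in both heads. Whether the receptor and its ligands differed by unlike amounts could not be tested with 1 array per head.

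**Figure D3:**
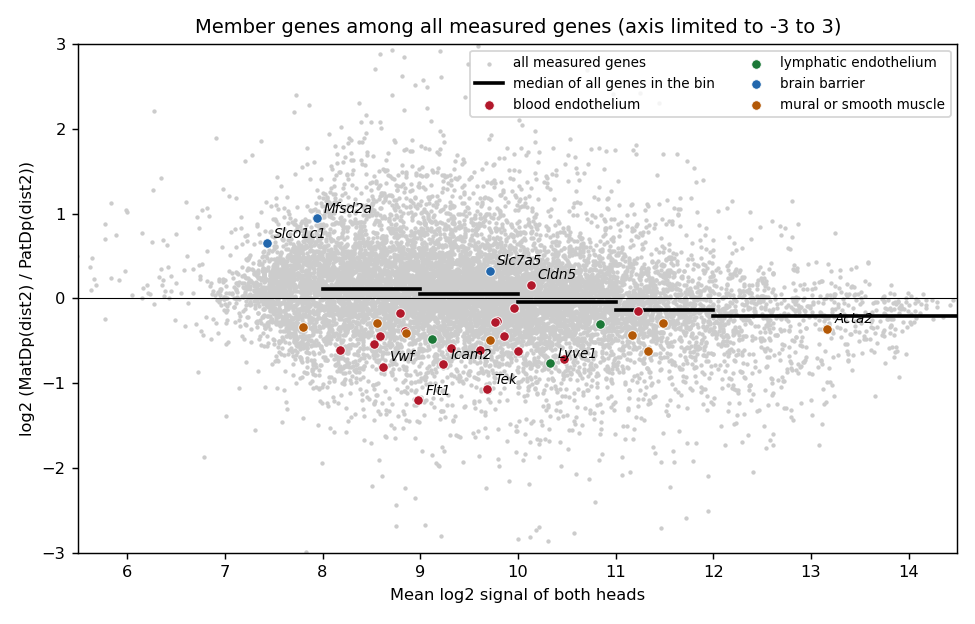
Log2 ratio of MatDp(dist2) over PatDp(dist2) against the mean log2 signal of both heads for all measured genes (grey), with member genes coloured by group and black bars for the median of all genes at or above the floor in both heads within each step of the mean. The medians go from 0.11 at a mean of 8 to 9 to -0.21 at 12 to 15, and most members lie below the bar at their own signal.

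The ratio of all genes drifted with brightness, which bears on the members. Among genes with a mean log2 signal of 8 to 9 the median log2 ratio was 0.11, and 9 members lay there. The 12 members between 9 and 10 had a background median of 0.06, and the 4 between 10 and 11 had -0.04. Only the 4 members between 11 and 12 and the 1 above 12, Acta2, sat where the background itself was -0.14 and -0.21. Ramp2 (-0.15) and Acta2 (-0.36) were among these, and after a loess fit on brightness the log2 ratio of Ramp2 was -0.06, that of Acta2 -0.18 and that of Notch3, which was -0.29 before, -0.18. With quantile normalization Acta2 had -0.13. In 8 alternative settings of floor, scaling, offset and probe set choice no sign change was found among these 33 members where they had a value, while 7 had none with the floor at the 70th percentile, 2 with the mean over probe sets and 1, Acta2, without _x_at and _s_at probe sets. Another floor or an offset cannot reverse the sign of a member. Median centring shifted all ratios by 0.04, less than the size of any member ratio, so it could not reverse one either.

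Vegfa, Vegfb and Vegfd were higher on the PatDp(dist2) array, like the VEGF receptor genes Kdr and Flt4, while the probe sets of Flt1 disagreed. Vegfa, the principal ligand of Kdr and Flt1, had signals of 1553 and 2705, or 1.74-fold. Vegfd, a ligand of Flt4, had 398 and 645, or 1.62-fold, and Vegfb, a ligand of Flt1, had 965 and 1459, or 1.51-fold. Vegfc, the other ligand of Flt4, had 354 and 319 and so pointed the other way by 1.11-fold. In the VEGF and semaphorin list 5 of 8 measured genes were higher on the PatDp(dist2) array, including 3 by at least 1.5-fold, against 48% and 10.8% of all measured genes. The median log2 ratio of the list was -0.32.

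The Notch, TGF-beta and BMP pathways, which act in many cell types besides vessels, had list medians near the 0.02 of all measured genes. In the Notch list 6 of 11 measured genes were higher on the PatDp(dist2) array, with a median of -0.04. Notch4, the receptor most restricted to endothelium, had signals of 578 and 1226, 2.12-fold higher on the PatDp(dist2) array. Hes1, a Notch target that neural progenitors express strongly, had 752 and 391, or 1.92-fold higher on the MatDp(dist2) array, and Efnb2, the ephrin of arteries, had 1044 and 804. In the TGF-beta and BMP list 4 of 12 measured genes were higher on the PatDp(dist2) array, with a median of 0.04. The ligand Tgfb1 had 523 and 342, its receptor Tgfbr2 had 3019 and 4177, and Smad5, a transducer of BMP signals, had 1104 and 881.

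Other endothelial genes, none of them among the 36, followed the blood endothelial members. Of 29 measured genes 26 were higher on the PatDp(dist2) array, 9 at least 1.5-fold and 4 at least 2-fold. The shares among all measured genes were 48%, 10.8% and 3.47%. The median log2 ratio of this list was -0.47. Cd36, a fatty acid receptor of capillaries, fat cells and macrophages, had signals of 1449.7 and 4901, or 3.38-fold. Procr, the endothelial protein C receptor, had 216 and 535, or 2.47-fold, and Gpihbp1, which anchors lipoprotein lipase to capillaries, had 1038 and 2248, or 2.17-fold. Lipid handling is a known task of capillaries in fat and muscle, and Fabp4 and Lpl of this list are also fat cell genes. Fat markers were higher on the PatDp(dist2) array in all 9 measured genes, with summed signals of 30731 and 77872 and 0 of them below the floor in both heads. Fabp4 and Lpl are members of both lists, and without them the fat sums were 13444 and 43846. The part of fat cells in the values of Cd36, Fabp4 and Lpl was not tested.

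Other lymphatic genes did not follow Lyve1 and Flt4. Of 9 measured genes 4 were higher on the PatDp(dist2) array and 5 on the MatDp(dist2) array, with a median log2 ratio of 0.16. Reln, a secreted protein of lymphatic vessels and, far better known, of cortical neurons, had signals of 2898 and 1282, or 2.26-fold higher on the MatDp(dist2) array. Nr2f2, a factor of veins that cooperates with Prox1 and is also neural, had 820.5 and 533, or 1.54-fold. Tbx1, a regulator of pharyngeal muscle and lymphatic growth, had 586 and 889.7, or 1.52-fold higher on the PatDp(dist2) array. Several genes of this list are thus shared with neurons or muscle, whose markers differed between the heads in opposite directions.

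Other mural genes and the vessel matrix lay with the mural members. Of 23 measured mural and smooth muscle genes 20 were higher on the PatDp(dist2) array, against 48% of all measured genes, with a median log2 ratio of -0.46. Kcnj8 and Abcc9, the paired subunits of the potassium channel of pericytes, had signals of 395 and 723.5 and of 1921 and 3403, which is 1.83-fold and 1.77-fold. Synpo2, an actin-binding protein of smooth and striated muscle, had 1698.5 and 3206, or 1.89-fold. In the basement membrane and matrix list 12 of 13 measured genes were higher on the PatDp(dist2) array, against the same 48%, with a median of -0.37. Its largest differences were those of the laminin chain Lamb1 (2574 and 5079.5), the elastic fibre protein Fbln5 (1194 and 2089.8) and the laminin linker Nid1 (5181 and 7283.5).

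**Figure D4:**
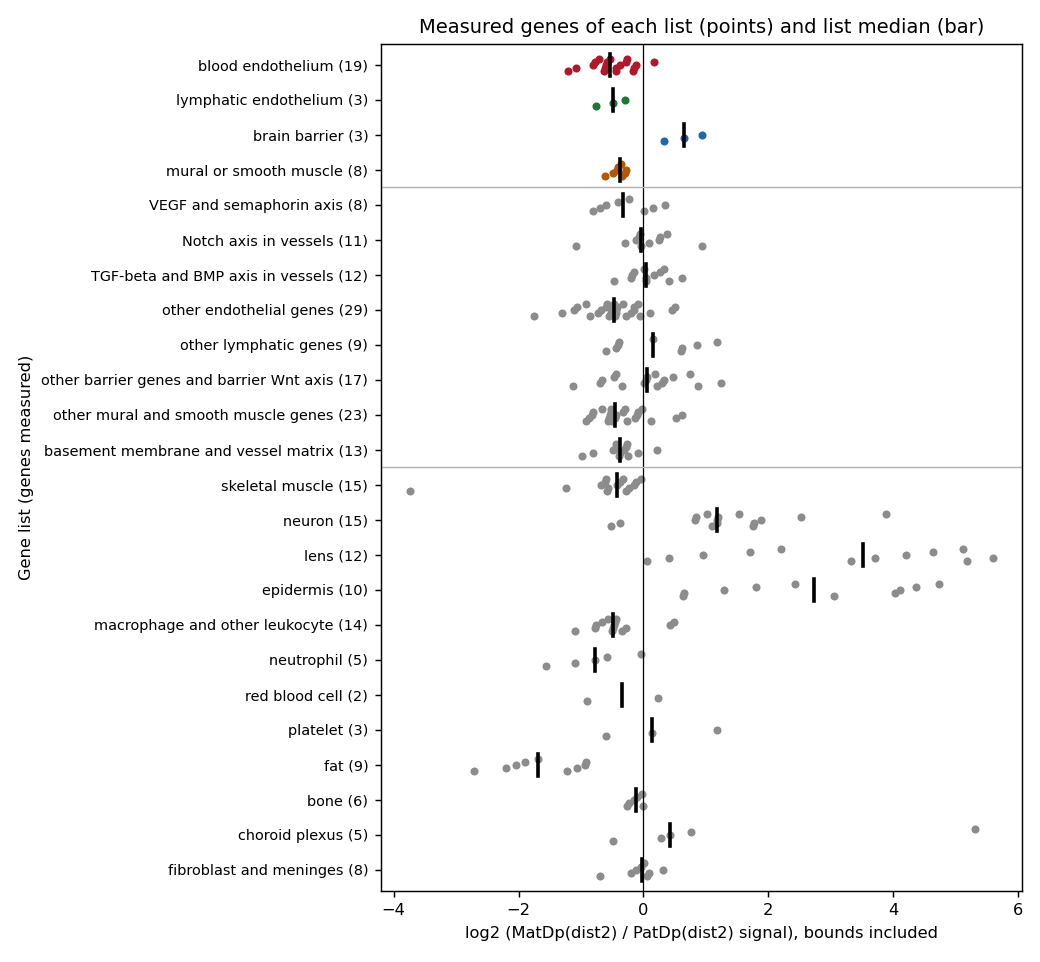
Log2 ratio of MatDp(dist2) over PatDp(dist2) for each measured gene (points) and list median (black bar) in the 4 member groups (coloured), 8 further vessel lists and 12 lists of other cell types, with the number of genes measured in brackets. Blood endothelium and mural genes sit on the same side as skeletal muscle, leukocytes and fat. The 3 measured barrier genes sit on the side of neurons, lens and epidermis. The filter fixed that side for Slco1c1, Mfsd2a and all 12 lens genes.

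The heads also differed in markers of tissues that vessels run through, so the vessel values do not stand alone. Skeletal muscle markers, which bear on Acta2 and Tagln because developing muscle makes both, were higher on the PatDp(dist2) array in 15 of 15 genes, with summed signals of 132557 and 169342 and a median log2 ratio of -0.43. Macrophage and leukocyte markers had a median of -0.48 and neutrophil markers -0.78, with 5 of 8 measured. Platelet markers, which bear on Vwf, were measured in 3 of 5 genes, 1 of them higher on the PatDp(dist2) array, with summed signals of 3618 and 4740. Red blood cell markers were measured in 2 of 5 genes, 1 in each direction, with summed signals of 2488 and 2595. Epidermis markers were higher on the MatDp(dist2) array in 10 of 10 genes, with summed signals of 55748 and 7930. Fibroblast and meningeal markers were nearly level, with 4 of 8 measured genes on each side and a median of -0.02, and bone markers, which bear on Pdpn, had a median of -0.13 in 6 genes. The part of these tissues in the vessel values was not tested.

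Members on the chromosomes whose parental origin differed showed the same direction as the others. Esam, Robo4, Tagln and Cnn1 lie on Chr 9, and the 3 of them that were measured were higher on the PatDp(dist2) array, with a median log2 ratio of -0.49 against -0.44 for the 27 measured members on other chromosomes than 2 and 9. Of all 705 measured genes of Chr 9, 51.6% were higher on the PatDp(dist2) array. Sox18 (-0.28) is the only member between the imprinted gene H13 and the distal end of Chr 2, a stretch where 42.9% of 245 measured genes were higher on the PatDp(dist2) array. Egfl7 and Eng lie on Chr 2 before H13. Procr, which is no member, lies in the distal stretch and had the ratio given above. The labels do not place the breakpoints, so which of these genes fall inside the duplicated parts was not analysed here.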

How the data were processed

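The values are the signals the authors deposited, 1 linear intensity per probe set and array, made with MAS5 and GCOS (no version named) per the submitters' processing notes. Trimmed of 2% of probe sets at each end, both arrays had a mean of 499.9, so the deposited values were scaled to a common level. In place of detection calls a floor at the 50th percentile was used. Of 45101 probe sets, 64 were controls, 34945 had 1 platform symbol (34741 of them matched to a RefSeq gene of GRCm38.p6 by gene ID, which updated the symbol), 932 had several and 9160 were not listed. Symbols, chromosomes and promoter sequences are from RefSeq. Log2 ratios, counts and medians were computed in Python 3.11.15 with pandas 2.3.3, and the code was tested on simulated data. Precision is limited by the number of arrays. Of 262 entries of 20 further lists, 251 were found. Every member is named. From each further vessel list the 3 genes with the largest difference at or above the floor in both heads are named. Members, lists and rules were chosen with earlier results of these data known. No comparison had a test, because each group has 1 array.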

Additional observations from a re-analysis of the deposited data

How the results depend on the processing

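Over 8 alternatives, of which leaving out _x_at and _s_at probe sets was chosen after seeing the data, no group median and no member measured in both settings changed sign. For a member this was fixed in advance under another floor, the offset or median centring, as stated above. The number of members higher on the PatDp(dist2) array stayed between 24 of 26 and 31 of 36 measured. With those floors, at the 70th and the 30th percentile, 51.9% and 45.9% of all measured genes were higher there. A floor at the 70th percentile and the mean over probe sets both left out Slco1c1 and Mfsd2a by construction, and the barrier median was 0.33 from Slc7a5 alone. In these settings 2 members, Cldn5 and Slc7a5, were higher on the MatDp(dist2) array, against 48.1% and 54.0% of all measured genes. At least 1.5-fold higher there were 0 members, against 9.02% and 10.8%. The barrier median was 0.45 with an offset of 100 and 0.42 with quantile normalization. In each, 1 gene was at least 1.5-fold higher on the MatDp(dist2) array, against 8.91% and 10.1% of all measured genes. The quantile value is over 4 genes, because Abcb1a entered at -0.06, and with the floor at the 30th percentile Abcb1a entered at -0.53. The blood endothelial median was -0.42 with the offset and -0.36 with the higher floor. The lymphatic median was -0.59 with quantile normalization. The offset left 7 members at least 1.5-fold higher on the PatDp(dist2) array, where the share among all measured genes was 8.7%. Only 1 member was at least 2-fold higher there with the floor at the 70th percentile, the mean over probe sets, the offset or quantile normalization, namely Flt1 with the offset and Tek in the other 3. The shares among all measured genes were 3.49%, 2.98%, 2.60% and 3.71% in that order of settings. With the floor at the 30th percentile 2 members, Slco1c1 and Mfsd2a, were at least 2-fold higher on the MatDp(dist2) array, against 5.48% of all measured genes. Apart from the genes left out, the cause was not tested. Signals near the floor limit several members: with the floor at the 70th percentile Vwf went from -0.80 to -0.16 and Flt1 from -1.20 to -0.72. Pecam1 went from -0.17 to -0.02 and was thus level, Robo4 from -0.38 to -0.17 and Angpt1 from -0.41 to -0.20. No paired analysis was possible because each group has 1 array.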

Other observations

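Ramp2 also had 2 probe sets that the platform annotation shares with its neighbour Vps25, and these were left out of every count. Probe set 1421051_s_at had signals of 539 on the MatDp(dist2) array and 419.9 on the PatDp(dist2) array, with a log2 ratio of 0.36, and 1428621_a_at had 1366 and 1465, with a log2 ratio of -0.10. They differed in direction, and which of the 2 genes each of them reads was not analysed here.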
